A study of Mus musculus with 8 samples.

Results

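The SoxF transcription factors Sox7, Sox17 and Sox18 were followed in RNA sequencing of tumor endothelial cells. They were taken by gene symbol from the deposited gene table, which gave 3 of its 35756 genes, and all 3 were among the 14539 genes that passed the filter on low counts. The first group was 4 Tie2-CreERT2;PPARβ/δ mice injected with Tamoxifen at 33 mg/kg/day for 1 week, and the second was 4 Tie2-CreERT2;PPARβ/δ mice injected with sunflower oil as vehicle. Per the methods both groups carried Tie2-CreERT2 and PPARβ/δ-flox+/- (strain label C57BL/6), although the genotype label of the vehicle mice reads wild-type. Tamoxifen switches on the Cre recombinase, whose Tie2 promoter is active in endothelium and also in some blood cells, and recombination leads to overexpression of PPARβ/δ, a nuclear receptor that binds fatty acids. After 1 further week, LLC1 cells, a mouse Lewis lung carcinoma line, were placed under the skin, and the tumors were taken 3 weeks later. Endothelial cells were pulled from the tumors with beads against CD31, the product of Pecam1. The methods describe the mice as adult and matched for age and sex, with no age in weeks for them. Mice with Tie2-CreERT2 alone and Tamoxifen were not analysed here, so Tamoxifen or active Cre and PPARβ/δ overexpression cannot be told apart as the source of any difference.

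SoxF proteins bind DNA through a high-mobility-group box and switch genes on in developing endothelium. Sox17 is known for its part in arterial identity and in the formation of the gut endoderm, Sox18 for the first steps of lymphatic development, and Sox7 for early blood and vessel formation. The 3 factors can stand in for each other in part, and in mouse tumors they are known from the vessels. Their direct targets in endothelium include genes of the Notch and VEGF pathways and of cell junctions.

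The libraries held between 19730726 and 24884372 counted reads, and the levels below are CPM, read counts relative to the TMM-scaled library total. Ppard, the gene that was to be overexpressed, stood at 122, 70.9, 120 and 118 CPM in the Tamoxifen libraries, against 74.1, 88.3, 53.4 and 81.9 CPM in the vehicle libraries, so the groups overlapped (log2 fold change 0.53, SE 0.25, edgeR quasi-likelihood test, adjusted p = 0.461). Among the vehicle libraries, oil2453 differed from all others in several respects. Ribosomal protein genes took 20.3% of its counts, against 4.46 to 10.1% in the other 7 libraries. Its 5 erythroid markers summed to 6278 CPM, against 24.9 to 525 CPM in the others, and its 5 epithelial markers to 759 CPM, against 110 to 226 CPM. The vehicle library oil2653 held the most lymphocyte transcripts, with 4 B cell markers at 491 CPM in sum, against 10.6 to 77.2 CPM in the others, and 9 T and NK cell markers at 229 CPM, against 17.9 to 64.4 CPM. Without oil2653 the SoxF log2 fold changes were 2.45 for Sox7, 2.02 for Sox17 and 2.02 for Sox18. All 20 listed pan-endothelial markers were read, among them Cdh5, the gene of VE-cadherin, at 656 ± 248 CPM in the Tamoxifen and 98.4 ± 52.5 CPM in the vehicle libraries (SD, n = 4 each). The fractions also held macrophage transcripts, as 11 macrophage markers summed to 7812 to 14352 CPM in the Tamoxifen and 4638 to 11508 CPM in the vehicle libraries. The lowest of these sums was that of oil2453, while the other vehicle libraries lay between 10488 and 11508 CPM. Reads of 4 Y-linked genes summed to more than 1 CPM in 1 Tamoxifen and 2 vehicle libraries, and the labels do not give the sex of single mice.

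In the edgeR fit of all libraries Sox7 had the highest fold change of the SoxF genes. The members did not differ from each other beyond their spread, and their order depended on the fit. DESeq2 of all libraries also had Sox7 first, while Sox18 was first with limma-voom, on the FPKM scale and without oil2453. The 2-exon gene Sox7 lies on chromosome 14 from 63943674 to 63950732, on the forward strand (GRCm38). It stood at 146, 65.4, 63.5 and 44.6 CPM in the Tamoxifen libraries, against 19.3, 4.36, 12.8 and 20.2 CPM in the vehicle libraries. Every Tamoxifen library lay above every vehicle library, and the lowest Tamoxifen library was 2.21 times the highest vehicle library. Behind these values were between 1161 and 2976 reads per Tamoxifen library and between 94 and 441 reads per vehicle library. The mean was 79.9 ± 45.2 CPM in Tamoxifen and 14.1 ± 7.31 CPM in vehicle libraries (SD, n = 4 each), and the log2 fold change was 2.50 (SE 0.52), or 5.65-fold.

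Sox17 lies on the reverse strand of chromosome 1 from 4490928 to 4496413. It stood at 76.9, 47.0, 47.7 and 37.5 CPM in the Tamoxifen libraries, against 25.8, 2.32, 8.91 and 10.6 CPM in the vehicle libraries. The groups did not overlap, but oil2453 stood nearer to the lowest Tamoxifen library than to the other vehicle libraries, and the gap was 1.45-fold. The mean was 52.3 ± 17.1 CPM in Tamoxifen and 11.9 ± 9.93 CPM in vehicle libraries (SD, n = 4 each), and the log2 fold change was 2.14 (SE 0.59), or 4.40-fold. The GENCODE M21 annotation has a processed transcript, Gm37587, on the opposite strand across this locus. Nothing used here says whether reads were counted by strand, so reads of both could stand under Sox17.

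Sox18, on the reverse strand of chromosome 2 from 181669836 to 181671640 and also of 2 exons, had the narrowest gap between the groups. It stood at 89.9, 40.0, 77.1 and 54.7 CPM in the Tamoxifen libraries, against 33.8, 2.74, 7.24 and 11.8 CPM in the vehicle libraries. The lowest Tamoxifen library, Tax2689, was 1.184 times the highest vehicle library, oil2453. The mean was 65.4 ± 22.3 CPM in Tamoxifen and 13.9 ± 13.8 CPM in vehicle libraries (SD, n = 4 each), and the log2 fold change was 2.24 (SE 0.66), or 4.72-fold. No other gene of the deposited table overlaps any of the 3 SoxF genes.

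**Figure D1:**
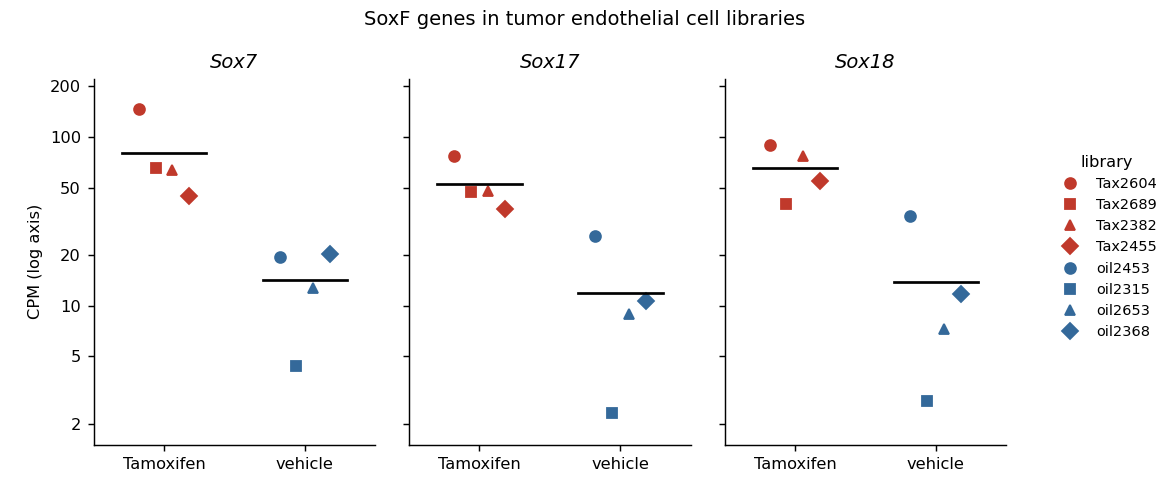
CPM of Sox7, Sox17 and Sox18 (log axis) in the 4 Tamoxifen and the 4 vehicle libraries, with 1 symbol per library and a line at the group mean. In each gene every Tamoxifen symbol sits above every vehicle symbol, oil2315 is the lowest library, and in Sox17 and Sox18 oil2453 is the highest vehicle library, at 25.8 and 33.8 CPM.

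The same libraries marked the ends of the range in all 3 genes. Tax2604 was the highest and oil2315 the lowest library each time. The vehicle libraries were the more spread, by 4.62-fold for Sox7, 11.1-fold for Sox17 and 12.3-fold for Sox18 between their highest and lowest, compared to 3.28-fold, 2.05-fold and 2.25-fold within the Tamoxifen libraries. Among libraries without Y-linked reads (3 Tamoxifen, 2 vehicle), the lowest Tamoxifen and highest vehicle values were 44.6 and 19.3 CPM for Sox7, 37.5 and 25.8 CPM for Sox17, and 54.7 and 33.8 CPM for Sox18. Among those with such reads, the single Tamoxifen library and the highest of 2 vehicle libraries were at 65.4 and 20.2 CPM for Sox7, 47.0 and 10.6 CPM for Sox17, and 40.0 and 11.8 CPM for Sox18. The groups were apart on either side of that split, which was made after the values were seen. They had to be, because the groups do not overlap in any of the 3 genes. The split is therefore no test of sex.

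None of the 3 genes passed the edgeR quasi-likelihood test after Benjamini-Hochberg adjustment over all 14539 genes: adjusted p = 0.0973 for Sox7, 0.183 for Sox17 and 0.211 for Sox18. The test called 0.0% of all genes, with a lowest adjusted p of 0.0732, although 1075 genes were higher and 515 lower at an unadjusted p under 0.05. At that unadjusted level 3 of 3 SoxF genes were higher in Tamoxifen libraries, compared to 7.39% of all genes that were higher and 3.54% that were lower. By the size of p they ranked 126, 419 and 496 among the 14539 genes, and by the log2 fold change 101, 228 and 186. Groups that do not overlap, as in 3 of 3 SoxF genes, were found higher in Tamoxifen for 5.87% of all genes, and the exact two-sided permutation p of each was 0.0286, the smallest that 4 against 4 libraries can give. The median log2 fold change of all genes was -0.03.

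The call depended on the tool and on single libraries. With DESeq2, which called 3.78% of all genes higher in Tamoxifen, 3 of 3 SoxF genes passed (adjusted p = 3.15e-04 for Sox7, 0.0153 for Sox17 and 0.0216 for Sox18). Limma-trend on the deposited FPKM values as log2(FPKM + 1), which called 2.55% of the genes it tested higher, also passed 3 of 3, with adjusted p from 0.0235 to 0.0282. The same fit without its filter on low values passed none (adjusted p from 0.0674 to 0.0793), and neither did limma-voom (adjusted p from 0.0708 to 0.0839). The scaling by library size alone, which called 1.22% of genes higher, passed Sox7 (adjusted p = 0.0414) but neither of the others, and log2(FPKM + 0.1), which called 1.78% higher, passed 3 of 3 with adjusted p from 0.0356 to 0.0487. Without oil2453, edgeR called 1.72% of genes higher, and Sox17 (log2 fold change 2.85, adjusted p = 0.0412) and Sox18 (3.18, adjusted p = 0.0382) passed while Sox7 did not (2.69, adjusted p = 0.0604). Without oil2315, the lowest vehicle library, the edgeR log2 fold changes were 2.17 for Sox7, 1.77 for Sox17 and 1.87 for Sox18, and none passed. DESeq2 passed 3 of 3 without either library, where it called 5.27% of all genes higher without oil2453 and 2.96% without oil2315.

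**Figure D2:**
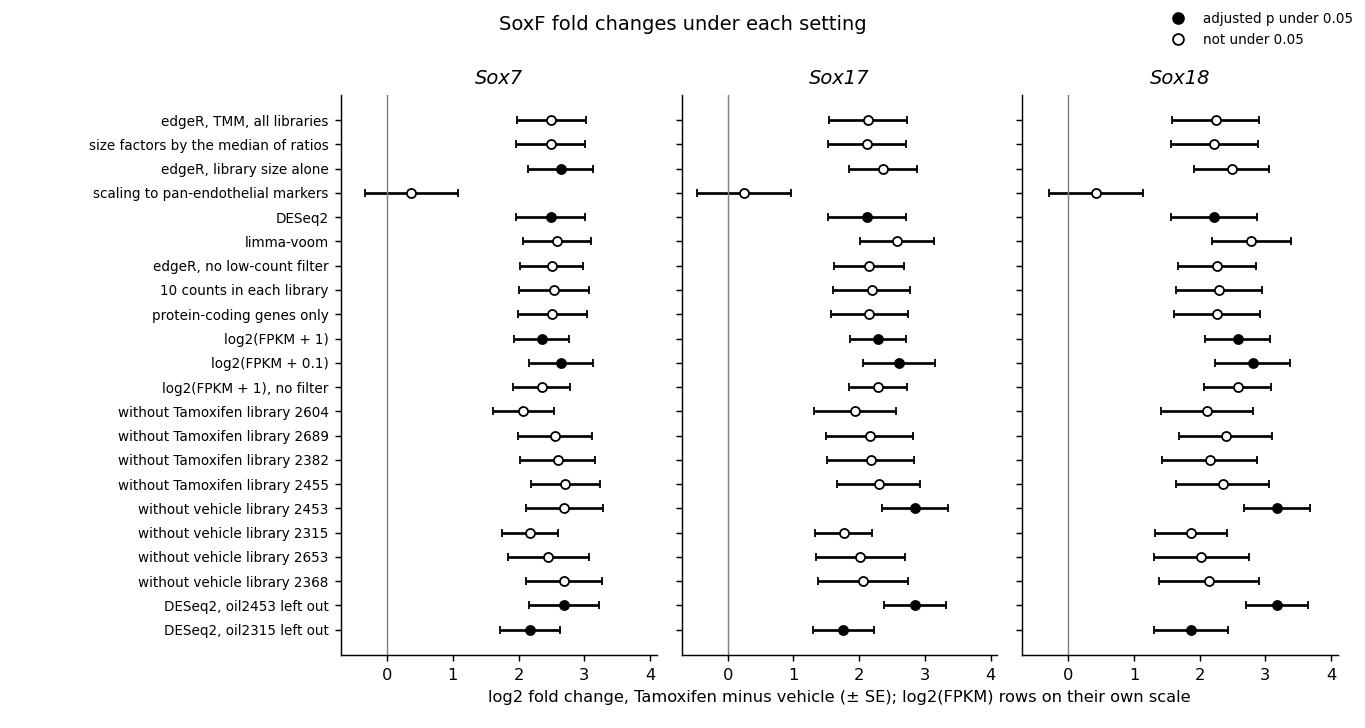
Log2 fold change of Sox7, Sox17 and Sox18, Tamoxifen minus vehicle, with its SE (bars), under the edgeR fit (top line) and each alternative, filled where the adjusted p was under 0.05. The points lie between 1.76 and 3.18 except under scaling to pan-endothelial markers, where they are 0.37, 0.25 and 0.42.

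Summed over the 3 genes, the SoxF level was 313, 152, 188 and 137 CPM in the Tamoxifen libraries, against 78.9, 9.42, 28.9 and 42.5 CPM in the vehicle libraries. The Tamoxifen libraries were higher by 2.60 on the log2 scale (SE 0.70), with 4 of 4 of them above the highest vehicle library (exact permutation p = 0.0286, two-sided and the smallest possible). This separation and its p follow from those of the single genes and are no further result. Between the members no unequal change was detected. On the log2 scale the Tamoxifen minus vehicle difference of Sox7 relative to Sox17 was 0.04 (SE 0.34, exact permutation p = 0.914), that of Sox7 relative to Sox18 was -0.15 (SE 0.48, exact permutation p = 0.8), and that of Sox17 relative to Sox18 was -0.19 (SE 0.25, exact permutation p = 0.486). All 3 had an adjusted p of 0.914 over the 3 pairs, which does not show that the members changed alike. Leaving out single libraries turned the sign of the first and second pair, which ranged from -0.26 to 0.19 and from -0.54 to 0.02.

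Since other endothelial transcripts were also higher in the Tamoxifen libraries, the SoxF genes were also set against endothelial transcripts of the same library, a ratio that does not depend on the scaling. Of 20 pan-endothelial markers, 18 were higher at an unadjusted edgeR p under 0.05, compared to 7.39% of all genes. None was lower, and their median log2 fold change was 2.13. Pecam1, the gene of the bead antigen, stood at 857 ± 211 CPM in Tamoxifen and 304 ± 83.3 CPM in vehicle libraries (SD, n = 4 each), and differed by 1.496 on the log2 scale (SE 0.30, edgeR adjusted p = 0.0871). In bulk libraries fewer endothelial cells and less RNA of a gene per endothelial cell cannot be told apart.

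Relative to Pecam1 each SoxF gene was still higher on average in the Tamoxifen libraries, but not beyond the spread. For Sox7 the log2 ratio to Pecam1 was -2.75, -3.53, -4.08 and -3.78 in the Tamoxifen libraries, against -3.91, -5.59, -4.52 and -4.36 in the vehicle libraries. The difference was 1.06 (SE 0.46), and 3 of 4 Tamoxifen libraries were above all vehicle libraries (exact permutation p = 0.0571, adjusted over the 3 genes 0.143). For Sox17 it was 1.02 (SE 0.64) and for Sox18 1.21 (SE 0.69), each with an exact permutation p of 0.143. In both of these oil2453 had the highest ratio of all 8 libraries, at -3.49 and -3.10, and the other 3 vehicle libraries lay below every Tamoxifen library. Without oil2453 the differences were 1.55 for Sox17 and 1.83 for Sox18 (exact permutation p = 0.0571 each, the smallest that 4 against 3 allow). Without oil2315, the lowest library in all 3 ratios, they were 0.55 for Sox17 and 0.78 for Sox18 (exact permutation p = 0.286 each), and for Sox7 the difference was 0.73 (exact permutation p = 0.114).

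Relative to the mean of the 20 pan-endothelial markers the differences were smaller, at 0.34 (SE 0.22) for Sox7, 0.30 (SE 0.26) for Sox17 and 0.48 (SE 0.34) for Sox18. Their exact permutation p-values were 0.171, 0.343 and 0.257, with an adjusted p of 0.343 over the 3 genes. The groups overlapped in all 3 genes. The marker mean itself was 2.23 higher on the log2 scale in the Tamoxifen libraries (SE 0.56), close to the log2 fold changes of the SoxF genes. Under a scaling of the libraries to these markers the SoxF fold changes were 0.37, 0.25 and 0.42 in the order Sox7, Sox17 and Sox18, and the median of all genes moved to -2.54. The list includes Cdh5, Kdr, Cldn5 and Robo4, which are also on the list of SoxF targets.

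**Figure D3:**
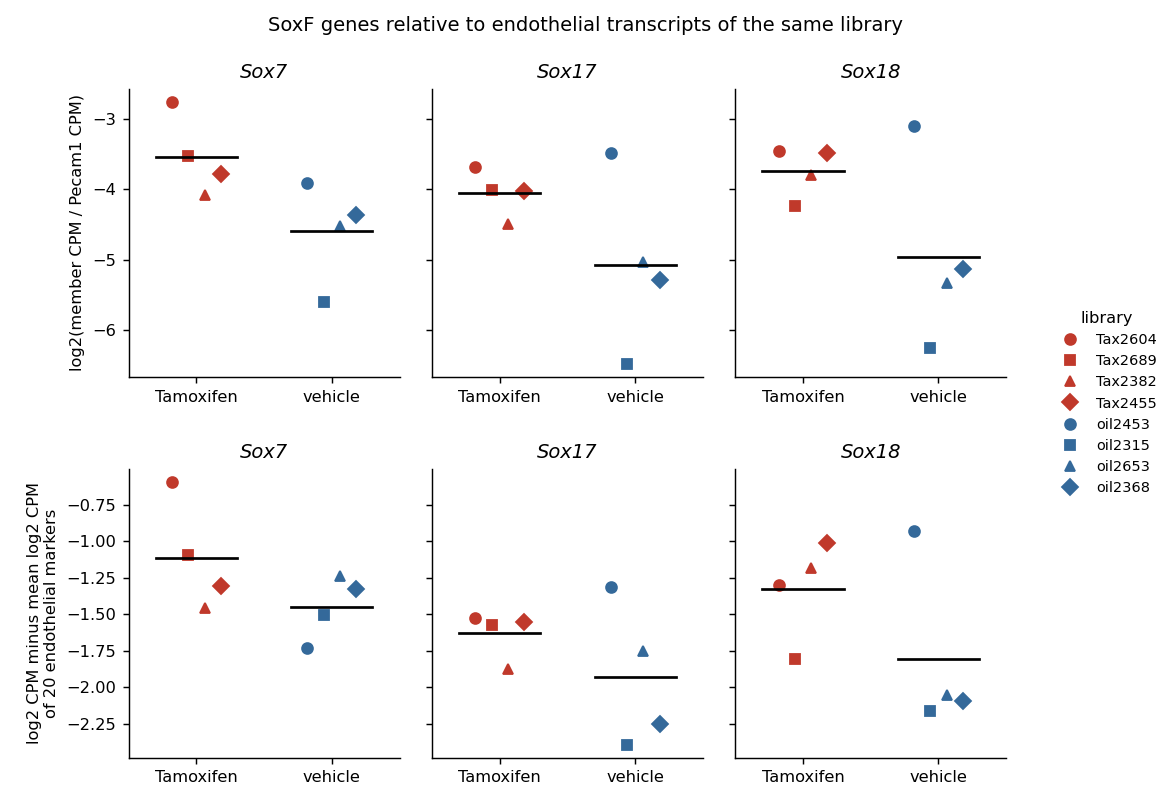
Log2 ratio of each SoxF gene to Pecam1 (upper row) and log2 CPM minus the mean log2 CPM of 20 endothelial markers (lower row), with 1 symbol per library, Tamoxifen left and vehicle right, and lines at the group means. The means differ by 1.02 to 1.21 in the upper row and by 0.30 to 0.48 in the lower row, and oil2453 is the highest library of all in Sox17 and Sox18 relative to Pecam1.

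Per transcript length, Sox18 was the most abundant member. The deposited FPKM of Sox18 was 41.5 ± 12.9 in Tamoxifen and 7.42 ± 6.06 in vehicle libraries, that of Sox7 25.1 ± 14.0 in Tamoxifen and 4.02 ± 1.98 in vehicle libraries, and that of Sox17 23.3 ± 7.45 in Tamoxifen and 4.53 ± 3.04 in vehicle libraries (SD, n = 4 each). Sox18 was above both others in 8 of 8 libraries. The mean log2 FPKM ratio of Sox7 to Sox18 was -0.74 (SD 0.64) and that of Sox17 to Sox18 was -0.73 (SD 0.35). Both had an exact sign-flip permutation p of 0.00781, the smallest that 8 libraries allow, and 0.0117 when adjusted over 3 pairs. Sox7 and Sox17 did not differ beyond their spread, with a mean log2 FPKM ratio of -0.01 (SD 0.46, exact p = 0.984). This last order rests on the length used. The FPKM of Sox17 correspond to 2321 bases while the table lists 3130, and with the listed length Sox7 was above Sox17 by 0.42 on the log2 scale in 7 of 8 libraries (exact p = 0.0469, unadjusted, with the length chosen after the values were seen). For Sox7 and Sox18 the FPKM correspond to the listed 3298 and 1620 bases.

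Sox18 made up 46.9 ± 8.19% of the SoxF FPKM in Tamoxifen and 43.6 ± 8.001% in vehicle libraries (SD, n = 4 each). The share of Sox7 was 26.8 ± 6.07% in Tamoxifen and 28.6 ± 8.77% in vehicle libraries, and that of Sox17 was 26.3 ± 3.41% in Tamoxifen and 27.8 ± 3.18% in vehicle libraries. The library oil2453 had the smallest share of Sox7, 15.5%, and the largest share of Sox18, 55.1%. Tax2382 and Tax2455 were close to it in the share of Sox18, at 54.5% and 53.2%, while the other 5 libraries lay between 36.7% and 42.1%.

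The other Sox genes were read for comparison. Of 16 listed genes of the other Sox groups, 6 were tested, and by mean FPKM in the Tamoxifen libraries the SoxF genes held the first 3 places among all 19 Sox genes, and likewise in the mean over the 8 libraries. In the vehicle libraries alone Sox9 came first. With the listed length Sox17 would be at 10.3 FPKM over the 8 libraries, behind Sox4 at 12.3 FPKM, and the ranges of both genes overlap widely. Sox4, of the group C, stood at 20.5 ± 10.8 FPKM in Tamoxifen and 4.01 ± 1.98 FPKM in vehicle libraries. Sox9, of the group E and known from cartilage and epithelium, was at 7.77 ± 8.33 FPKM in Tamoxifen and 10.47 ± 7.07 FPKM in vehicle libraries, its groups overlapping (SD, n = 4 each). Sox1 and Sox3, of the neural group B, had no read in any library.

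Among these 6 genes 2 were higher in Tamoxifen at an unadjusted edgeR p under 0.05, compared to 7.39% of all genes. None was lower, and the median log2 fold change was 0.01. Sox13, a group D factor, stood at 14.9, 10.1, 14.6 and 8.83 CPM in the Tamoxifen libraries, against 3.14, 1.35, 2.18 and 2.92 CPM in the vehicle libraries. Its libraries did not overlap and were less spread than those of the SoxF genes (log2 fold change 2.34, SE 0.35, edgeR adjusted p = 0.0732, the lowest value of the fit, which it shares with other genes). Sox4 stood at 165, 43.5, 85.5 and 86.7 CPM in Tamoxifen libraries, against 17.3, 26.6, 8.91 and 25.7 CPM in vehicle libraries, again without overlap (2.28, SE 0.46, edgeR adjusted p = 0.0909). Both passed with DESeq2 (adjusted p = 9.74e-08 for Sox13 and 2.56e-04 for Sox4), and Sox13 also without oil2453 (edgeR adjusted p = 0.0382). The remaining 4 overlapped between the groups, with log2 fold changes of 0.04 for Sox12, -0.02 for Sox11, -0.38 for Sox5 and -0.70 for Sox9.

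Of 10 genes listed as SoxF targets from the literature on endothelium, 9 were tested. All 9 had a positive log2 fold change (median 1.99), compared to 47.2% of all genes. At an unadjusted edgeR p under 0.05, 6 were higher, compared to 7.39% of all genes, and none lower. In the same 6 the groups did not overlap, as in 5.87% of all genes. None passed after adjustment over all genes. With DESeq2 6 passed (3.78% of all genes), and 4 passed edgeR without oil2453 (1.72% of all genes). Of the 20 pan-endothelial markers, for comparison, 13 passed with DESeq2 and 10 passed edgeR without oil2453. The 2 lists are not independent, as Cdh5, Kdr, Cldn5 and Robo4 are on both.

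Cdh5 had the largest difference among the targets. It stood at 967, 448, 745 and 465 CPM in Tamoxifen libraries, against 131, 35.4, 76.3 and 151 CPM in vehicle libraries (log2 fold change 2.74, SE 0.48, edgeR adjusted p = 0.0732). Kdr, the gene of VEGF receptor 2, stood at 168, 91.1, 178 and 96.6 CPM in Tamoxifen libraries, against 22.0, 17.3, 26.8 and 44.0 CPM in vehicle libraries (2.28, SE 0.36, edgeR adjusted p = 0.0732). The arterial Notch ligand gene Dll4, which has a known enhancer bound by SoxF factors, stood at 271, 157, 199 and 134 CPM in Tamoxifen libraries, against 95.4, 11.6, 29.0 and 55.1 CPM in vehicle libraries (1.99, SE 0.56, edgeR adjusted p = 0.187). As in Sox17 and Sox18, oil2453 was the highest and oil2315 the lowest vehicle library of Dll4. Its receptor gene Notch1 differed by 2.001 (SE 0.52, edgeR adjusted p = 0.159), and Efnb2, the gene of the arterial ligand ephrin-B2, by 1.60 (SE 0.42, edgeR adjusted p = 0.163).

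Robo4, a receptor of the endothelium whose expression in zebrafish vessels depends on Sox factors, stood at 180, 82.6, 126 and 77.9 CPM in Tamoxifen libraries, against 54.0, 6.35, 14.0 and 30.8 CPM in vehicle libraries (2.15, SE 0.60, edgeR adjusted p = 0.183). Its groups did not overlap. Its libraries stood in the same order as those of Sox17, with Tax2604 highest, oil2315 lowest and oil2453 at the top of the vehicle group. Dll4 and the pan-endothelial marker Tie1 had this order too, so it is not particular to Robo4. Robo4 was also the only tested target to hold the core letters of a Sox site, of 7 with a promoter in the RefSeq table used. These letters are ACAAT on either strand, looked for in the window from 250 bases before to 50 bases after the start. Of 32544 mouse promoters of that length, 30.8% hold these letters, so a match is a description and not a binding site. The 250 bases before the start are shown because they carry both matches, in capitals, at positions -225 (reverse strand) and -214 (forward strand), on chromosome 9, forward strand, chr9:37401722-37401971 (RefSeq, GRCm38.p6).
Robo4: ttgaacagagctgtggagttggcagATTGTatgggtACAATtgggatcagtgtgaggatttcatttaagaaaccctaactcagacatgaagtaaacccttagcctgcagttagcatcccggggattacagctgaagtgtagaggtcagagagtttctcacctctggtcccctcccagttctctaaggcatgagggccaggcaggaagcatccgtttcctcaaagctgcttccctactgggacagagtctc
The letters AGGTCANAGGTCA, the direct repeat that PPARs bind with their partner RXR, were in none of the windows of these 7 genes and are in 0.0399% of all promoters (both strands). At that share no match is to be looked for among 7 windows, so the absence says nothing about PPAR binding. The SoxF genes themselves had no promoter in the RefSeq table used.

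The 3 remaining tested targets differed less. Cldn5, the gene of the endothelial tight junction protein claudin-5, stood at 223, 143, 208 and 102 CPM in Tamoxifen libraries, against 442, 11.7, 37.1 and 48.8 CPM in vehicle libraries. Here oil2453 alone lay above the Tamoxifen libraries, and the log2 fold change was 0.33 (SE 0.92, edgeR adjusted p = 0.914) with it and 2.38 without it (edgeR adjusted p = 0.0509). Vcam1, a leukocyte adhesion gene, differed by 0.41 (SE 0.33, edgeR adjusted p = 0.643). Prox1, the gene that Sox18 switches on in lymphatic precursors, was barely read, at 0.904 ± 0.738 CPM in Tamoxifen and 0.422 ± 0.403 CPM in vehicle libraries (SD, n = 4 each), and its groups overlapped. Mmp7 had only 2 reads in all.

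**Figure D4:**
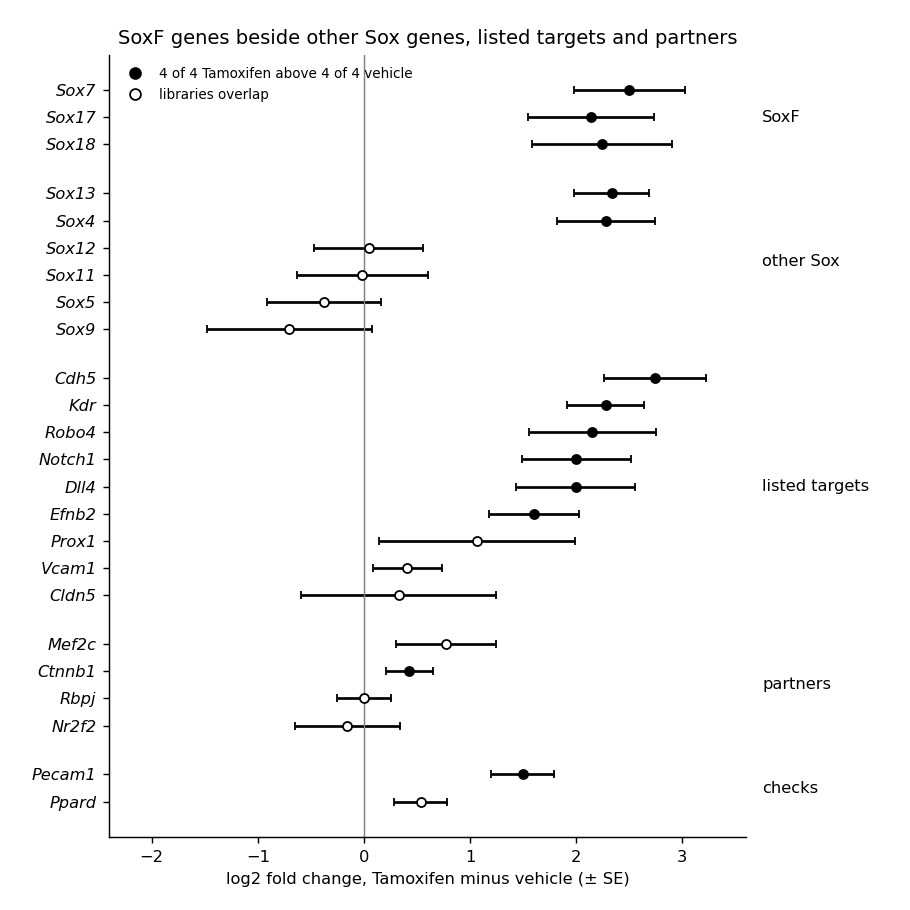
Log2 fold change, Tamoxifen minus vehicle, with its SE (bars), of the SoxF genes, the other tested Sox genes, the listed targets and partners of SoxF factors, and Pecam1 and Ppard. Filled points are genes in which 4 of 4 Tamoxifen libraries lay above 4 of 4 vehicle libraries. The SoxF genes lie between 2.14 and 2.50, near Sox13, Sox4 and 6 of the 9 targets, while the other 4 tested Sox genes lie between -0.70 and 0.04.

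Genes of proteins that act together with SoxF factors were read as well. None of 4 tested partners was higher or lower at an unadjusted edgeR p under 0.05, and their median log2 fold change was 0.22. Over all genes 7.39% were higher and 3.54% lower at that level. No call among 4 genes is near these shares and does not show that the partners were unchanged. Mef2c, a partner of Sox18, differed by 0.77 (SE 0.47, edgeR adjusted p = 0.532), and Ctnnb1, the gene of β-catenin, which Sox17 binds, by 0.43 (SE 0.22, edgeR adjusted p = 0.481) with no overlap between the groups. Rbpj, the DNA-binding factor of the Notch pathway, averaged 309 ± 31.6 CPM in Tamoxifen and 309 ± 88.1 CPM in vehicle libraries (SD, n = 4 each). Nr2f2, a venous factor that joins Sox18 in lymphatic precursors, differed by -0.16 (SE 0.49, edgeR adjusted p = 0.925).

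Markers of the vessel types in which SoxF factors are known to act were read as well. Over all genes, 7.39% were higher at an unadjusted edgeR p under 0.05. The lists are not separate, as Dll4 and Efnb2 are both arterial genes and listed targets, and some venous genes are also pan-endothelial markers. Of 10 arterial genes 5 were higher at the unadjusted edgeR level and none lower (median log2 fold change 1.26), and Hey1, a Notch target of arteries, differed by 2.07 (SE 0.57, edgeR adjusted p = 0.18). Of 6 venous genes 4 were higher (median 1.64), with Aplnr, the apelin receptor gene, at 2.62 (SE 0.63, edgeR adjusted p = 0.131). Of 7 tested lymphatic genes 3 were higher (median 1.09), and 6 had a positive log2 fold change. Foxc2, which had the smallest p of the 7, was at 4.23 ± 0.615 CPM in Tamoxifen and 0.812 ± 0.34 CPM in vehicle libraries (SD, n = 4 each). The 4 tested endoderm genes, looked at because of the known role of Sox17 there, had a median of -0.85, and none passed at the unadjusted level. Gata6, Foxa2 and Gata4 were at 3.62, 0.557 and 2.28 CPM in Tamoxifen and 7.17, 1.37 and 3.77 CPM in vehicle libraries. The remaining gene, Foxa1, went the other way, at 0.619 CPM in Tamoxifen and 0.447 CPM in vehicle libraries. Without oil2453, where Gata6 was at 17.0 CPM, the median of the 4 genes was -0.15.

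Most mural cell markers were higher in the Tamoxifen libraries too. Of 11 such genes 9 were higher at the unadjusted edgeR level, compared to 7.39% of all genes, and none lower. Their median log2 fold change was 2.30. The summed level was 654 to 961 CPM in the Tamoxifen and 57.9 to 234 CPM in the vehicle libraries. Mcam was the largest part of this sum in every library. It stood at 263 to 526 CPM in the Tamoxifen and 23.0 to 152 CPM in the vehicle libraries. The sum thus rests in large part on Mcam and is no even measure of the 11 genes. Notch3, the Notch receptor of mural cells, differed by 3.12 (SE 0.52, edgeR adjusted p = 0.0732). The part of these cells in the SoxF difference was not tested. The 11 macrophage markers had a median of -0.11 and the 8 fibroblast markers a median of -0.08, with none higher or lower at the unadjusted level. The median was -0.31 for neutrophil, -1.48 for T and NK cell, -1.67 for B cell, -0.45 for platelet, -2.66 for erythroid and -0.67 for epithelial markers. In these lists none was higher at that level and 1, of epithelium, was lower. Without oil2453 the medians of the fibroblast, platelet and erythroid markers turned to 0.43, 0.50 and 0.67.

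The profiles of single genes over the 8 libraries were compared with those of the SoxF genes by the root mean square difference of centred log2 CPM, over the 13240 other genes with a mean of at least 1 CPM. As a description, the values were 0.32 between Sox17 and Sox18, 0.42 between Sox7 and Sox17 and 0.60 between Sox7 and Sox18, where the median over all genes was 1.58 for Sox7, 1.64 for Sox17 and 1.75 for Sox18. Sox18 ranked 26 among the genes most like Sox17, and Sox17 ranked 15 among those most like Sox18. Pecam1 was farther off than the other members, between 0.77 and 1.04. All genes share the 8 libraries and their scaling.

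The 5 genes most like Sox7 were She (0.19), a signalling adaptor gene, Ldb2 (0.23), a binding partner of LIM domain factors, Mamstr (0.23), a coactivator of MEF2 factors, Dysf (0.25), known from membrane repair, and the homeobox gene Msx1 (0.25). They shared with Sox7 a lower level in oil2453 than the genes nearest to Sox17 and Sox18 had there. This likeness is built into the way they were chosen. The 5 nearest to Sox17 were the homeobox gene Meox1 (0.15), the proton-sensing receptor gene Gpr4 (0.19), Igfbp7 (0.19), a secreted factor of vessels, Eva1a (0.20) and the natriuretic peptide receptor gene Npr2 (0.21). The 5 nearest to Sox18 were Sema3f (0.15), a semaphorin gene, Gpr4 (0.18), Bcl6b (0.20), Inhbb (0.26), a subunit gene of activin B, and Col4a1 (0.27), a collagen gene of the basement membrane. Gpr4 was thus in second place for both Sox17 and Sox18. Their log2 fold changes, from 1.80 for Npr2 to 2.99 for Mamstr, are positive by the way these 14 genes were chosen.

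**Figure D5:**
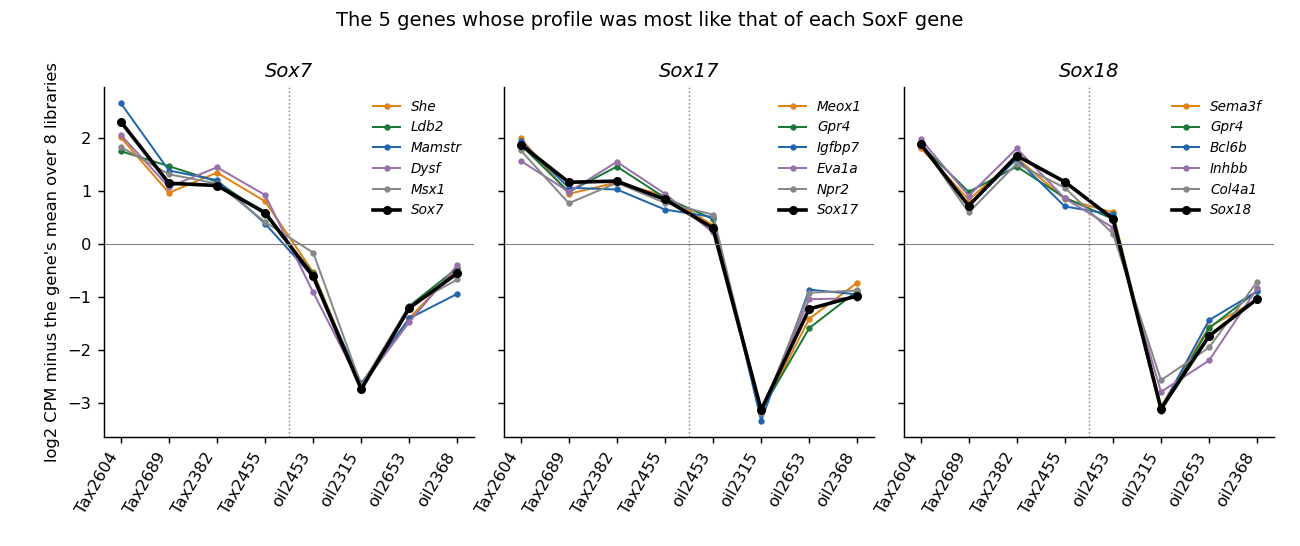
Log2 CPM minus the mean of each gene over the 8 libraries, for Sox7, Sox17 and Sox18 (black) and the 5 genes most like each (colours), Tamoxifen libraries left and vehicle libraries right of the dotted line. The lines only join the libraries. In oil2453 Sox7 lies at -0.62 while Sox17 and Sox18 lie at 0.30 and 0.47, and in oil2315 they lie at -2.74, -3.13 and -3.11.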

How the data were processed

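The deposited gene table of 8 mouse tumor endothelial libraries was analysed (4 Tamoxifen, 4 vehicle). The authors removed reads with adapters, poly-N or low quality and counted reads per gene with HTSeq 0.6.1. Bowtie2 2.2.3, TopHat2 2.0.12 and the build mm8 also stand in the submitters' processing notes, but of 34490 gene identifiers that GENCODE M21 (GRCm38) shares, 99.8% overlap in position. The deposited counts were used as given, and the FPKM were calculated by the authors from gene length and counts. The table's group means, fold changes and p-values are the authors' own comparison and were not used. No column of per-sample values was left unassigned.

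Counts were tested with edgeR 4.0.16 (R 4.3.3) by the quasi-likelihood test after filtering at a minimum count of 10 and TMM scaling, with the group as its single term. Adjustment was by Benjamini-Hochberg over 14539 genes (biological coefficient of variation 0.441). The threshold was an adjusted p of 0.05. Log2 ratios used a prior count of 2. For single values the 70 assignments of 4 against 4 were permuted exactly, two-sided (scipy), and for member levels the signs over the 8 libraries were flipped exactly. The methods give 4 mice in each group, and the number in each library's name was taken as that of its mouse. Alternatives were DESeq2 1.42.0, limma 3.58.1 (voom, and trend on log2(FPKM + 1) and log2(FPKM + 0.1)), other scalings and filters, protein-coding genes only and leaving out each library. The text names the SoxF genes, all tested genes of the lists of other Sox genes, targets and partners, the 5 genes most like each member, Ppard, Pecam1 and at most 3 genes of each other list, by smallest p. Gm37587 was named after the annotation was searched, and the Y-linked genes, Tie1, Foxa1, Mcam and the Robo4 window were chosen after values were seen. The members and the gene lists were chosen with earlier results of these data known.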

Additional observations from a re-analysis of the deposited data

Results flagged for a closer look

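Among 36 groups of 4 libraries examined, 3 held a library far from the other 3, where chance gives about 1 in 20. Relative to Sox18, Sox7 was at -0.80 on the log2 scale in the vehicle library oil2453, against 0.65 to 0.81 in the other vehicle libraries. Relative to the pan-endothelial markers, Sox18 was at -0.93 in oil2453, against -2.16 to -2.05 in the other vehicle libraries. Relative to the same markers, Sox17 was at -1.87 in the Tamoxifen library Tax2382, against -1.57 to -1.52 in the other Tamoxifen libraries.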

How the results depend on the processing

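No paired analysis was possible because the groups share no replicate numbers. Besides the scaling to pan-endothelial markers, 20 alternatives were run for each SoxF gene, and the log2 fold change was positive in 20 of 20 for each, with 6 calls each. DESeq2 gave 2.49 for Sox7, 2.12 for Sox17 and 2.22 for Sox18. It also called all 3 in fits added after seeing the data, without oil2453 (2.69, 2.85 and 3.18) and without oil2315 (2.18, 1.76 and 1.86). Called were further log2(FPKM + 1) (2.35, 2.29 and 2.58), log2(FPKM + 0.1) (2.64, 2.61 and 2.81) and, for Sox7, library size alone (2.64). Leaving out single libraries gave 2.07 to 2.71 for Sox7, 1.77 to 2.85 for Sox17 and 1.87 to 3.18 for Sox18, with adjusted p from 0.0604 to 0.284, 0.0412 to 0.462 and 0.0382 to 0.487.

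The count of called genes was 0 with edgeR, with limma-voom and with log2(FPKM + 1) without a filter, 574 with DESeq2, 796 and 482 with DESeq2 without oil2453 and oil2315, 177 by library size alone, 68 without the low-count filter, 317 and 221 with log2(FPKM + 1) and log2(FPKM + 0.1), 13239 lower and 0 higher under scaling to pan-endothelial markers, and 0 to 256 with a library left out (256 without oil2453, 31 without oil2368). Relative to Pecam1, leaving out a library gave 0.73 to 1.29 for Sox7, 0.55 to 1.55 for Sox17 and 0.78 to 1.83 for Sox18. The summed SoxF difference was 0.37 under scaling to pan-endothelial markers (exact permutation p = 0.114) and 2.03 to 3.05 with a library left out, where the smallest possible p of 0.0571 cannot pass. With a library left out, Sox7 relative to Sox17 ranged from -0.26 to 0.19 and reversed to -0.10 without Tax2604 and to -0.26 without oil2453. Sox7 relative to Sox18 ranged from -0.54 to 0.02 and reversed to 0.014, 0.020 and 0.0023 without Tax2382, Tax2455 and oil2653. In each of these cases the cause was not tested. Prox1 and Mmp7 were too thinly read for a difference to be detectable.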
